A study of Rattus norvegicus with 6 samples.

Results

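Transcription factor genes of cartilage and bone were followed in injured rat tail discs, 10 of the 30562 genes in the deposited count table. They were chosen by name as lineage factors of cartilage, sclerotome and bone, and each of Sox9, Sox5, Sox6, Pax1, Nkx3-2, Runx2, Runx3, Sp7, Mef2c and Dlx5 matched 1 row. All 10 passed the filter on low counts. Bulk RNA was sequenced from the discs of wild-type male Sprague-Dawley rats, after puncture of a tail disc with an 18 gauge needle. The rats were aged 12 weeks when the puncture model was set up. The 3 Control libraries came from discs given 10 μL of PBS. The other 3 are labelled AF-PTK@LEV@SPP1, a liposome fused with bacterial vesicles that bears a peptide binding the annulus fibrosus on a linker cut by oxidants and carries an siRNA against Spp1, given as 10 μL with 1 mg/kg of siRNA. Injection began 24 h after surgery and the study describes 8 weeks of treatment. The sample labels differ from this account: they name untreated controls, a course of 14 days, and macrophages sorted from digested mouse tissue.

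SOX9 directs the formation of cartilage, and the related proteins SOX5 and SOX6 bind beside it near genes of the cartilage matrix. PAX1 and NKX3-2 act earlier, in the sclerotome, the embryonic source of vertebrae and discs, where NKX3-2 also holds back Runx2. RUNX2 and its downstream factor SP7 drive osteoblast formation, RUNX2, RUNX3 and MEF2C act in the maturation of growth plate cartilage, and DLX5 is a homeobox factor upstream of Runx2 and Sp7.

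The Control libraries held 17942989, 16565291 and 17489851 counts, and those labelled AF-PTK@LEV@SPP1 held 17074981, 15560728 and 17855184. Control replicates 2 and 3 were close to copies of each other. The variance of their counts was 1.33 times that of sampling noise over 14393 genes, against 54.8 to 109 times for the other pairs within a group, and 16 genes (0.111%) differed between them. They were counted as 1 sample, which leaves 5 distinct samples, 3 against 2. Control replicate 1 differed from both, with 7025 of 14861 genes (47.3%) differing from replicate 2. Levels are given as CPM, in which counts are put on a shared scale of library size and composition, and means with SD treat the Control pair as 1 value. In these units 3 counts, taken as the smallest measurable level, are 0.154 to 0.193 CPM, a floor that speaks to counting error alone and not to how rats differ. No gene lengths were at hand, so levels per length were not compared between genes. The most abundant gene of a list, or the gene that leads it, is the one with the highest mean CPM over the 6 libraries, without regard to length.

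Spp1, the target of the siRNA, was measured first. It had 8114, 4408 and 4414 CPM in Control replicates 1, 2 and 3, and 8047, 6893 and 8451 CPM in AF-PTK@LEV@SPP1 replicates 1, 2 and 3. Control replicate 1 lay inside the range of the other group and the Control pair lay under it. The log2 fold change was 0.31 (SE 0.37) with a Benjamini-Hochberg (BH) adjusted p of 0.628 in edgeR's quasi-likelihood test, and it was 0.81 without Control replicate 1 and -0.066 without the Control pair. Spp1 was therefore not measurably lower in the libraries that carry the name of the siRNA, and directions below refer to libraries by their labels. The study describes an siRNA against mouse SPP1 and measured its knockdown in cultured mouse macrophages, whereas these are rat discs. Its action on rat Spp1 was not tested here.

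Among the 10 factors, Sox6 rose in the group labelled AF-PTK@LEV@SPP1, to 2.98 times the Control mean, a call that needed each of its 3 libraries and Control replicate 1. Nkx3-2 had a larger fold, 3.39 times, and Pax1 had 2.18 times, but both missed the threshold of an adjusted p under 0.05. Runx2, Runx3 and Sp7 had negative log2 fold changes, which lay near 0 or turned positive without Control replicate 1. Dlx5, upstream of Runx2 and Sp7, had a positive log2 fold change of 0.56, and of 1.52 without Control replicate 1. Without the Control pair instead, Runx2, Runx3, Sp7 and Dlx5 had log2 fold changes of -0.95, -1.25, -0.73 and -0.023. With edgeR over the 5 distinct samples, 1 of 10 factors was called higher and 0 were called lower, where 3.70% of 15537 tested genes were called, 1.13% as higher and 2.57% as lower. At an unadjusted p under 0.05 edgeR gave 3 factors higher and 0 lower, where 12.4% of all tested genes were higher and 13.0% lower. DESeq2 called 3 higher and 0 lower, where it called 6.71% of 16109 genes higher and 8.83% lower. limma-voom called 1 higher and 0 lower, where it called 0.895% of genes higher and 2.03% lower. With the 6 libraries kept as deposited, edgeR called 2 factors, both higher, where 18.1% of 15042 genes were called, 8.20% as higher and 9.93% as lower. The 10 factors had a median log2 fold change of 0.45, and all tested genes had 0.046.

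**Figure D1:**
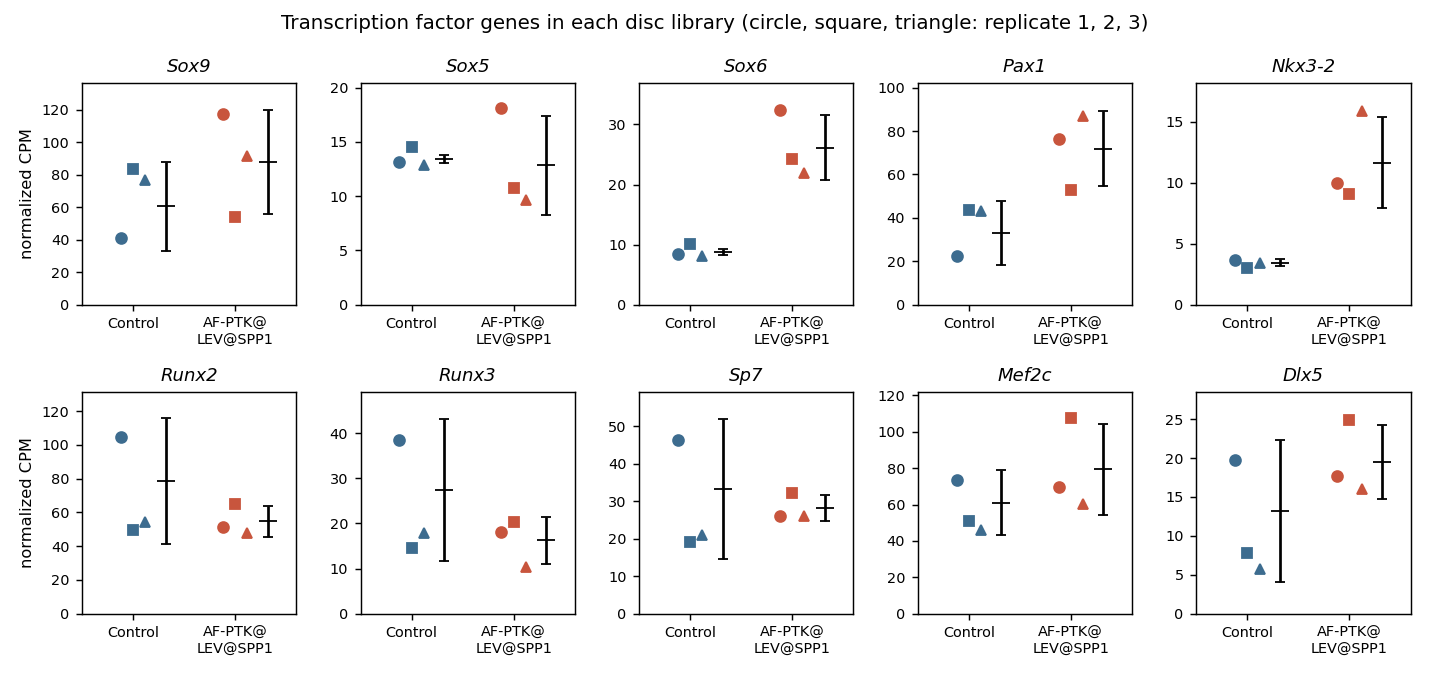
Normalized CPM of each factor gene (vertical axes, each from 0) in 3 Control libraries and 3 with the label AF-PTK@LEV@SPP1; circles, squares and triangles are replicates 1, 2 and 3, and black marks are means ± SD over 2 and 3 distinct samples. Sox6, Pax1 and Nkx3-2 have no overlap between the groups, and Control replicate 1 lies above the other Control libraries for Runx2, Runx3, Sp7, Dlx5, Mef2c and, by less, Nkx3-2, and under them for Sox9 and Pax1.

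The SOX genes are taken in turn, and differences between them were not tested. Sox6 (ENSRNOG00000020514, chromosome 1, 169729194 to 170277386, minus strand) had 164, 158 and 133 counts in Control replicates 1, 2 and 3, and 551, 402 and 385 counts in AF-PTK@LEV@SPP1 replicates 1, 2 and 3. After normalization these were 8.41, 10.2 and 8.11 CPM in Control and 32.4, 24.2 and 21.9 CPM in the labelled libraries. Each labelled library lay above each Control library, and AF-PTK@LEV@SPP1 replicate 1 was the highest. The means were 8.78 ± 0.510 CPM (SD, n = 2) and 26.2 ± 5.49 CPM (SD, n = 3). The log2 fold change was 1.57 (SE 0.21, 95% interval 1.02 to 2.11), with a BH-adjusted p of 0.0341 in edgeR. The exact permutation test over the 5 samples gave p = 0.1 (two-sided), the smallest that 3 against 2 can give.

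Sox6 kept a log2 fold change between 1.35 and 1.69 under 17 alternatives, and 12 of them called it, with edgeR, DESeq2 or limma-voom adjusted p-values from 8.73e-07 to 0.156. Its call was lost without AF-PTK@LEV@SPP1 replicate 1, 2 or 3, where edgeR's BH-adjusted p was 0.0515, 0.0913 and 0.136. It was also lost without Control replicate 1 (edgeR, BH-adjusted p 0.0954) and without the Control pair (edgeR, BH-adjusted p 0.156). Leaving out AF-PTK@LEV@SPP1 replicate 2 or 3 ended the calls of every tested gene in edgeR, with 3109 and 2699 genes then at an unadjusted p under 0.05.

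Sox5 (ENSRNOG00000027869, chromosome 4, 176785892 to 177736852, minus strand), the paralog that pairs with Sox6 in cartilage, had 13.1, 14.5 and 12.9 CPM in Control. In AF-PTK@LEV@SPP1 replicates 1, 2 and 3 it had 18.1, 10.8 and 9.68 CPM. Replicate 1 lay above the Control libraries and replicates 2 and 3 lay under them. Its log2 fold change was -0.069 (SE 0.30, 95% interval -0.84 to 0.70; edgeR, BH-adjusted p 0.906), and it was -0.43, 0.046 and 0.10 without AF-PTK@LEV@SPP1 replicates 1, 2 and 3. A gene model on the opposite strand inside the Sox5 span had 1 to 3 counts in a library.

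Sox9 (ENSRNOG00000002607, chromosome 10, 97806485 to 97811994, plus strand) had 802, 1294 and 1254 counts in Control and 2001, 898 and 1611 counts in the labelled libraries. This gave 41.2, 83.2 and 76.5 CPM in Control replicates 1, 2 and 3, against 118, 54.1 and 91.7 CPM in AF-PTK@LEV@SPP1 replicates 1, 2 and 3. The groups overlapped, with the lowest value in Control replicate 1 and the next lowest in AF-PTK@LEV@SPP1 replicate 2. The means were 60.5 ± 27.4 CPM (SD, n = 2) and 87.8 ± 31.9 CPM (SD, n = 3), a difference within the spread of either group. On the log2 scale the fold change was 0.53 (SE 0.43; edgeR, BH-adjusted p 0.478), 0.12 without Control replicate 1 and 1.09 without the Control pair.

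Reads of 1 gene divided by reads of another in the same library need no library size, and 6 such ratios were formed after the values had been seen. Sox6 had 0.641, 0.699 and 0.630 reads per Sox5 read in Control replicates 1, 2 and 3. In AF-PTK@LEV@SPP1 replicates 1, 2 and 3 it had 1.79, 2.25 and 2.26. Control replicate 1 fell with the other Control libraries here. Per Sox9 read, Sox6 had 0.204, 0.122 and 0.106 reads in Control and 0.275, 0.448 and 0.239 in the labelled libraries.

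Of the sclerotome factors, Nkx3-2 (ENSRNOG00000060782, chromosome 14, 69183820 to 69186061, plus strand) was the gene with the fewest reads among the 10 and had the highest fold, with 71, 47 and 56 counts in Control and 170, 150 and 279 counts in the labelled libraries. It had 3.64, 3.02 and 3.42 CPM in Control replicates 1, 2 and 3, and 9.99, 9.04 and 15.9 CPM in AF-PTK@LEV@SPP1 replicates 1, 2 and 3. The 3 Control libraries lay close together and under each labelled library, of which replicate 3 was the highest. The means were 3.43 ± 0.300 CPM (SD, n = 2) and 11.6 ± 3.71 CPM (SD, n = 3). The log2 fold change was 1.75 (SE 0.32, 95% interval 0.95 to 2.55), with a BH-adjusted p of 0.0525 in edgeR and p = 0.1 in the exact permutation test over the 5 samples. With the 6 libraries kept, edgeR's BH-adjusted p was 0.00940. Over the 17 alternatives its log2 fold change ran from 1.47 to 1.91 and its adjusted p in edgeR, DESeq2 or limma-voom from 7.57e-05 to 0.237, under the threshold in 5.

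Pax1 (ENSRNOG00000024882, chromosome 3, 134789182 to 134801636, plus strand) had 22.5, 43.7 and 43.2 CPM in Control. AF-PTK@LEV@SPP1 replicates 1, 2 and 3 had 76.1, 52.8 and 86.9 CPM. The groups did not overlap, but AF-PTK@LEV@SPP1 replicate 2 lay nearer to the Control pair than the pair lay to Control replicate 1. The means were 33.0 ± 14.8 CPM (SD, n = 2) and 71.9 ± 17.4 CPM (SD, n = 3), with a log2 fold change of 1.11 (SE 0.36; edgeR, BH-adjusted p 0.144). It was 0.71 without Control replicate 1 and 1.67 without the Control pair. DESeq2 called Pax1 at a BH-adjusted p of 0.0430, the lowest of the 17 alternatives, which reached 0.318. Nkx3-2 had 0.162, 0.0691 and 0.0791 reads per Pax1 read in Control and 0.131, 0.171 and 0.183 in the labelled libraries, with Control replicate 1 inside the labelled range.

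Sox6, Nkx3-2 and Pax1 are thus the 3 of 10 factors whose labelled libraries lay above the distinct Control samples, and 0 of 10 lay under them. Among the 15537 tested genes, 23.9% lay above and 21.9% lay under without overlap, so the number of separated factors is near that of genes at large.

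**Figure D2:**
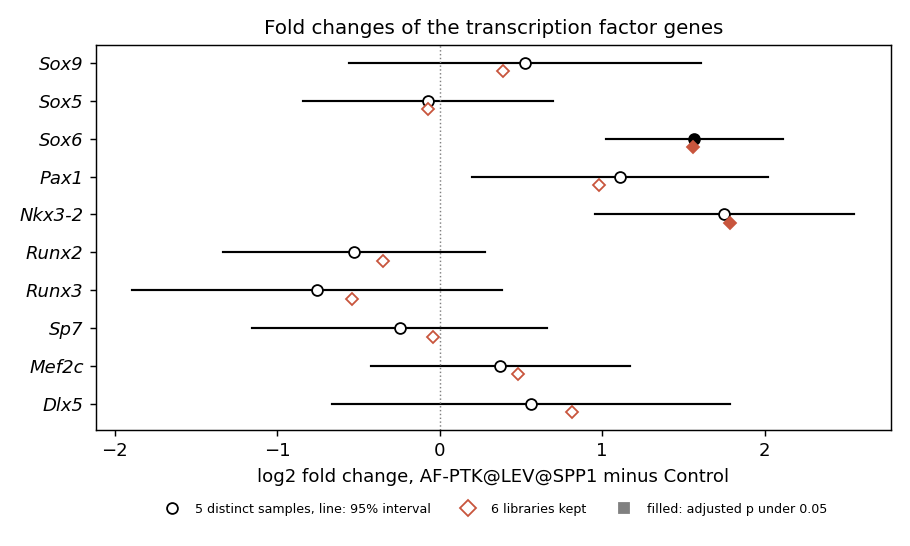
Log2 fold change of each factor gene (horizontal axis), libraries labelled AF-PTK@LEV@SPP1 minus Control. Circles with lines are edgeR estimates with 95% intervals over 5 distinct samples, diamonds are estimates with the 6 libraries kept, and filled marks have an adjusted p under 0.05. Sox6 is filled in both and Nkx3-2 with the 6 libraries kept.

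For Runx2, Runx3, Sp7 and Dlx5 the Control group was split. Runx2 (ENSRNOG00000020193, chromosome 9, 16167482 to 16492167, plus strand) had 2043, 770 and 894 counts in Control and 871, 1081 and 842 counts in the labelled libraries. It had 105, 49.5 and 54.5 CPM in Control replicates 1, 2 and 3, and 51.2, 65.1 and 47.9 CPM in AF-PTK@LEV@SPP1 replicates 1, 2 and 3. Control replicate 1 was above every other library, and the Control pair lay among the labelled libraries. Its log2 fold change was -0.53 (SE 0.32; edgeR, BH-adjusted p 0.352), and it was 0.055 without Control replicate 1 and -0.95 without the Control pair. Supt3h overlaps Runx2 on the opposite strand and had 127 to 322 counts. The use of strand in counting was not stated, so reads from the overlap cannot be told apart.

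Runx3 (ENSRNOG00000054217, chromosome 5, 147360994 to 147419156, plus strand), which also acts in cytotoxic T cells, had 38.5, 14.6 and 17.8 CPM in Control replicates 1, 2 and 3. AF-PTK@LEV@SPP1 replicates 1, 2 and 3 had 18.2, 20.2 and 10.4 CPM. Control replicate 1 again stood above the other 5 libraries, and the lowest value was in AF-PTK@LEV@SPP1 replicate 3. The log2 fold change was -0.75 (SE 0.45; edgeR, BH-adjusted p 0.346), moving to -0.015 without Control replicate 1 and -1.25 without the Control pair.

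Sp7 (ENSRNOG00000014082, chromosome 7, 133484609 to 133494847, minus strand), also known as osterix, had 46.5, 19.0 and 21.0 CPM in Control replicates 1, 2 and 3. In AF-PTK@LEV@SPP1 replicates 1, 2 and 3 it had 26.1, 32.1 and 26.1 CPM. The labelled libraries fell between Control replicate 1 and the Control pair. For Sp7 the log2 fold change was -0.25 (SE 0.36; edgeR, BH-adjusted p 0.698), but 0.47 without Control replicate 1 and -0.73 without the Control pair.

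Dlx5 (ENSRNOG00000010905, chromosome 4, 34999139 to 35003407, minus strand) had 384, 121 and 94 counts in Control and 301, 413 and 281 counts in the labelled libraries. That was 19.7, 7.78 and 5.74 CPM in Control replicates 1, 2 and 3, against 17.7, 24.9 and 16.0 CPM in AF-PTK@LEV@SPP1 replicates 1, 2 and 3. Control replicate 1 sat inside the labelled range and the Control pair well under it. For Dlx5 the log2 fold change was 0.56 (SE 0.48; edgeR, BH-adjusted p 0.504), rising to 1.52 without Control replicate 1 and falling to -0.023 without the Control pair.

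Set against Runx2 in the same library, Sp7 had 0.443, 0.384 and 0.385 reads per Runx2 read in Control replicates 1, 2 and 3, and 0.510, 0.493 and 0.545 in AF-PTK@LEV@SPP1 replicates 1, 2 and 3. Dlx5 had 0.188, 0.157 and 0.105 reads per Runx2 read in Control and 0.346, 0.382 and 0.334 in the labelled libraries. Runx2 had 2.55, 0.595 and 0.713 reads per Sox9 read in Control and 0.435, 1.2 and 0.523 in the labelled libraries, so that Control replicate 1 was the highest and the groups overlapped.

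Mef2c (ENSRNOG00000033134, chromosome 2, 13993438 to 14132880, plus strand), a factor of growth plate cartilage that is also active in muscle and endothelium, had 73.6, 51.0 and 45.9 CPM in Control. AF-PTK@LEV@SPP1 replicates 1, 2 and 3 had 69.8, 108 and 60.4 CPM. Replicate 2 was the highest of the 6 libraries and Control replicate 1 lay above the other labelled libraries. For Mef2c the log2 fold change was 0.37 (SE 0.32; edgeR, BH-adjusted p 0.496), 0.093 without AF-PTK@LEV@SPP1 replicate 2, 0.70 without Control replicate 1 and 0.099 without the Control pair.

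Over the 6 libraries, the profile of Sox9 lay nearest to those of Ism1, Cdsn and Arhgef28, at Euclidean distances of 0.111, 0.171 and 0.232 in centred log2 CPM among 10016 genes. Pax1 was the nearest of the other factors compared, at 0.899. Nkx3-2 was not among the genes compared. Runx2 lay nearest to Cd4, Nopchap1 and Alpl, at 0.304, 0.324 and 0.327, followed among the factors by Sp7 at 0.474 and Runx3 at 0.609. Alpl encodes the alkaline phosphatase of osteoblasts and hypertrophic cartilage and had 267, 112 and 117 CPM in Control and 142, 159 and 104 CPM in the labelled libraries. The distance between Sox9 and Runx2 was 2.12.

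Matrix genes known as targets of SOX9 with SOX5 and SOX6 did not move together. Of 16 tested, 2 were called higher and 0 lower in edgeR, with 2 higher and 3 lower at an unadjusted p under 0.05, 2 higher and 2 lower in DESeq2 and 2 higher and 0 lower in limma-voom. The median log2 fold change was -0.34, and the summed level was 27865, 37623 and 37517 CPM in Control and 47002, 34043 and 51143 CPM in the labelled libraries, with Col2a1 the most abundant gene. Chad, which encodes chondroadherin, had 222, 465 and 466 CPM in Control and 2872, 1797 and 3260 CPM in the labelled libraries, a log2 fold change of 2.93 (SE 0.48; edgeR, BH-adjusted p 0.0454). Cytl1, a secreted cytokine-like protein of cartilage, had a log2 fold change of 3.06 (SE 0.39; edgeR, BH-adjusted p 0.0303). Col2a1 itself had 0.57 (SE 0.44; edgeR, BH-adjusted p 0.459).

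Hypertrophic cartilage genes, which RUNX2 and MEF2C are known to act on, had 0 called higher and 1 lower of 9 in edgeR, the same counts as at an unadjusted p under 0.05, in DESeq2 and in limma-voom. The called gene was Mmp13, a collagenase, with 6089, 4569 and 4556 CPM in Control and 626, 851 and 639 CPM in the labelled libraries. Its log2 fold change was -2.92 (SE 0.27; edgeR, BH-adjusted p 0.0196), while that of Runx2 was -0.53. The list had a median of -0.43 and sums of 10673, 7325 and 7310 CPM in Control and 3253, 3685 and 2342 CPM in the labelled libraries. Without Mmp13 the sums were 4584, 2756 and 2754 CPM in Control and 2627, 2834 and 1702 CPM in the labelled libraries, and the groups overlapped. Mmp13 had the highest CPM on average and in Control, and Ibsp, named after its values were seen, had the highest in the labelled libraries, with 1060, 1487 and 651 CPM.

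Osteoblast and osteocyte genes gave 0 calls of 15 in edgeR in either direction, and 0 at an unadjusted p under 0.05, in DESeq2 and in limma-voom. Their median log2 fold change was 0.31, and their sums were 62926, 75341 and 75655 CPM in Control and 109124, 81685 and 97888 CPM in the labelled libraries. Col1a1, the most abundant, had a log2 fold change of 0.48 (SE 0.50; edgeR, BH-adjusted p 0.582). In 10 of the 15 genes the Control pair lay under each of the other 4 libraries, and in 0 it lay above them, where 20.9% of all tested genes lay under and 19.8% above. The same pattern of a low pair held for 7 of 8 B cell, 6 of 9 neutrophil, 6 of 10 nucleus pulposus, 5 of 8 Schwann cell and 5 of 8 erythroid markers. It held for 3 of 16 SOX9 targets, 1 of 9 hypertrophic genes, 5 of 22 partners, 2 of 17 sclerotome and hedgehog genes and 2 of 10 T and NK cell markers, and for 0 annulus, muscle, macrophage or endothelial markers. The pair lay above the other 4 libraries for 3 SOX9 targets, 5 partners, 6 sclerotome and hedgehog genes, and 4 annulus, 1 muscle, 4 T and NK cell and 5 endothelial markers, and for 0 on the remaining lists. The pair lay above Control replicate 1 in 2 genes, Col1a1 and Sparc (the latter named after its values were seen), which carry most of the sum. Bglap (osteocalcin), singled out after its values were seen, had 624, 12.1 and 12.6 CPM in Control replicates 1, 2 and 3 and 567, 872 and 757 CPM in the labelled libraries. Sost, an osteocyte gene singled out in the same way, had 29.7, 1.86 and 1.34 CPM in Control and 58.8, 70.2 and 41.7 CPM in the labelled libraries. Dlx5, Sp7, Mef2c and Nkx3-2 were also lower in the Control pair than in each of the other 4 libraries. In bulk tissue fewer cells of a type and less RNA per cell cannot be told apart, and the part of bone in the levels of these factors was not tested.

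Partners, paralogs and repressors of the factors numbered 22, of which 19 were tested, 0 were called higher and 1 lower in edgeR. At an unadjusted p under 0.05 edgeR had 2 higher and 5 lower, DESeq2 called 0 higher and 3 lower, and limma-voom called 0 higher and 1 lower. Sox4, a SOX factor of progenitor cells, had 55.5, 82.0 and 80.6 CPM in Control and 22.5, 25.9 and 26.4 CPM in the labelled libraries, with a log2 fold change of -1.47 (SE 0.19; edgeR, BH-adjusted p 0.0309). The list had a median log2 fold change of 0.11 and sums of 887, 954 and 953 CPM in Control and 951, 843 and 839 CPM in the labelled libraries, and Atf4 was its most abundant gene. Sclerotome and hedgehog genes, the setting in which Pax1 and Nkx3-2 are induced, gave 0 calls of 17 in edgeR and in limma-voom, with 1 higher and 3 lower at an unadjusted p under 0.05 and 0 higher and 1 lower in DESeq2. Their median was -0.021, their sums were 288, 357 and 351 CPM in Control and 371, 329 and 313 CPM in the labelled libraries, and Ptch1, the most abundant, had a log2 fold change of -0.042.

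Markers of tissue regions and other cells were measured beside the factors. Nucleus pulposus and notochord markers summed to 1760, 611 and 602 CPM in Control and 7189, 3997 and 3525 CPM in the labelled libraries. AF-PTK@LEV@SPP1 replicate 1 was the highest, as for Sox6, Sox5 and Sox9. Within Control the sum was highest in replicate 1, whereas Sox6 had 8.41, 10.2 and 8.11 CPM in replicates 1, 2 and 3. Of 9 tested, 0 were called by edgeR, with 5 higher and 1 lower at an unadjusted p under 0.05 and in DESeq2 and 0 in limma-voom. Car3 was the most abundant and Noto was at 0 in each library. Annulus and tendon markers had 1 of 10 called higher and 0 lower in edgeR, with 2 higher and 2 lower at an unadjusted p under 0.05, 3 higher and 1 lower in DESeq2 and 1 higher and 0 lower in limma-voom. The called gene was Cilp, with a log2 fold change of 2.69 (SE 0.28; edgeR, BH-adjusted p 0.0221), and the sums, mostly from Col1a2, were 23752, 36573 and 37112 CPM in Control and 52065, 36399 and 47102 CPM in the labelled libraries. Without Col1a2 they were 4137, 11174 and 11218 CPM in Control and 6713, 4478 and 6550.3 CPM in the labelled libraries, so the group with the higher mean changed. The part of these regions in the levels of Sox6, Pax1 and Nkx3-2 was not tested.

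Sox6 is also active in red cell precursors, muscle and the nerve sheath, and the part of these cells in the Sox6 value was not tested. Erythroid markers summed to 2377, 3184 and 3275 CPM in Control and 2499, 20421 and 14030 CPM in the labelled libraries, most of it from Hba-a1, a globin gene with close copies. In AF-PTK@LEV@SPP1 replicate 1, where Sox6 was highest, the erythroid sum was inside the Control range. Skeletal muscle markers, led by Acta1, summed to 926, 1207 and 1229 CPM in Control and 918, 9636 and 2506 CPM in the labelled libraries. Their peak in AF-PTK@LEV@SPP1 replicate 2 is also where Mef2c was highest, and their part in the Mef2c value was not tested. Schwann cell markers, led by Pmp22, summed to 482, 544 and 523 CPM in Control and 794, 1379 and 1923 CPM in the labelled libraries, all above Control as for Sox6. edgeR called 0 of 8 genes on each of these 3 lists. At an unadjusted p under 0.05 there were 2 erythroid, 0 muscle and 6 Schwann cell genes higher, DESeq2 called 4, 0 and 6, and limma-voom 0 of each.

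Immune markers bear on Runx3. T and NK cell markers summed to 176, 104 and 101 CPM in Control and 74.2, 104 and 99.6 CPM in the labelled libraries, mostly from Cd4. Without Cd4 the sums were 26.4, 22.9 and 20.01 CPM in Control and 8.81, 20.4 and 28.1 CPM in the labelled libraries. The sum with Cd4 mostly follows that gene, and which cells its reads came from was not tested. Control replicate 1 was highest with Cd4, as for Runx3 and for the macrophage sum below. Without Cd4 the highest was AF-PTK@LEV@SPP1 replicate 3, where Runx3 was lowest. Of 10 tested, 6 had a negative and 4 a positive log2 fold change, and edgeR called 2 lower and 0 higher. At an unadjusted p under 0.05 there were 5 lower and 0 higher, DESeq2 called 4 lower and 0 higher, and limma-voom 2 lower and 0 higher. Cd8a, the coreceptor of cytotoxic T cells, had a log2 fold change of -2.19 (SE 0.31; edgeR, BH-adjusted p 0.0363) and Cd2 had -2.02 (SE 0.24; edgeR, BH-adjusted p 0.0260). The 4 positive genes, named after their values were seen, were the cytotoxic cell genes Nkg7 (2.05), Gzmb (0.89), Prf1 (0.82) and Klrd1 (0.71), none of them called, with edgeR BH-adjusted p-values of 0.369, 0.594, 0.505 and 0.506. Cd4, the most abundant of the list and the gene with the profile nearest to Runx2, had 149, 81.1 and 80.8 CPM in Control and 65.4, 84.1 and 71.5 CPM in the labelled libraries. Macrophage and monocyte markers, led by Mrc1, summed to 1254, 833 and 830 CPM in Control and 391, 586 and 500.4 CPM in the labelled libraries. Of 9 tested, edgeR called 2 lower, Cd68 at -1.97 (SE 0.22; BH-adjusted p 0.0231) and Cd14 at -1.89 (SE 0.12; BH-adjusted p 0.0119), and 0 higher. An unadjusted p under 0.05 gave 4 lower and 0 higher, DESeq2 4 and 0, and limma-voom 2 and 0. Marco was at 0 in each library. The part of immune cells in the Runx3 value was not tested.

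Neutrophil markers, led by S100a9, summed to 1124, 184 and 174 CPM in Control and 289, 2864 and 3949 CPM in the labelled libraries. B cell markers, led by Ebf1, summed to 83.9, 43.8 and 37.8 CPM in Control and 66.7, 114 and 144 CPM in the labelled libraries. Endothelial markers, led by Pecam1, summed to 619, 769.9 and 756 CPM in Control and 476, 538 and 548 CPM in the labelled libraries. edgeR called 0 of 8 tested genes on each of these lists and limma-voom 0. At an unadjusted p under 0.05 there were 0 neutrophil genes, 2 B cell genes higher and 4 endothelial genes lower, and DESeq2 called 0, 1 and 3. The part of these cells in the levels of the factors was not tested.

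Promoter sequences are shown for Sox6, Nkx3-2 and Pax1, whose labelled libraries lay above Control, and for Runx2 and Runx3, which shared a high value in Control replicate 1. They run from 250 bases before to 50 after the gene start and come from RefSeq on the GRCr8 build, not from the unnamed build of the count table, whose coordinates are given above. The table held 7 promoters for 5 of the 10 factors, and had no entry for Sox9, Sox5, Sp7, Mef2c and Dlx5. Capitals mark ACAAT or its reverse complement ATTGT, the core bound by SOX proteins, and TGTGGT or its reverse complement ACCACA, the core bound by RUNX proteins, which do not overlap. On either strand the SOX core is in 33.7% and the RUNX core in 17.3% of 33469 promoters of the same length. For Runx2 and Runx3, the upstream of 2 listed starts is shown. Counts per gene do not separate the starts.
Sox6, chr1:179665322-179665621, minus strand: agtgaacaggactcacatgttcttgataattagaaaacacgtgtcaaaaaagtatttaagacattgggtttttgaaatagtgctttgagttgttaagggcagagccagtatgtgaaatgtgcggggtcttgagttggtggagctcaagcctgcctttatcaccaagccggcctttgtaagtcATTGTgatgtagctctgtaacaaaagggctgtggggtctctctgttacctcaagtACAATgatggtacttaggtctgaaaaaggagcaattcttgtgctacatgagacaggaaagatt
Nkx3-2, chr14:73395948-73396247, plus strand: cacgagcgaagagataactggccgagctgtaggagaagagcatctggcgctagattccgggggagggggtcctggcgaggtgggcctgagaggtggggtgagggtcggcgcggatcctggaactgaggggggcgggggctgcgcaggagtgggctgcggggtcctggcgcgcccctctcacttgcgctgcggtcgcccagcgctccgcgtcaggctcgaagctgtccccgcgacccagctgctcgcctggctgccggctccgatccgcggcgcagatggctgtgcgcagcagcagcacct
Pax1, chr3:155245279-155245578, plus strand: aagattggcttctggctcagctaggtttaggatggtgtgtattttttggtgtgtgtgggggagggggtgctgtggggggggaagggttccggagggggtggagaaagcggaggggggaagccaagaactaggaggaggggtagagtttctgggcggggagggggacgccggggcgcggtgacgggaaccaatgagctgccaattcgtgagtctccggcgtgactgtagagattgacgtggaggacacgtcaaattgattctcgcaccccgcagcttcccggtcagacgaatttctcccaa
Runx2, chr9:23664808-23665107, plus strand: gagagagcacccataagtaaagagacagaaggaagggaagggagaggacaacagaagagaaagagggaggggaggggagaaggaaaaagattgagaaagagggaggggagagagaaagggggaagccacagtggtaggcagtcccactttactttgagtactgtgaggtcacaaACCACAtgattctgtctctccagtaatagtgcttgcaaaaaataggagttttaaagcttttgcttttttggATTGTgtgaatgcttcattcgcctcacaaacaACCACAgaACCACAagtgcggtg
Runx3, chr5:152644020-152644319, plus strand: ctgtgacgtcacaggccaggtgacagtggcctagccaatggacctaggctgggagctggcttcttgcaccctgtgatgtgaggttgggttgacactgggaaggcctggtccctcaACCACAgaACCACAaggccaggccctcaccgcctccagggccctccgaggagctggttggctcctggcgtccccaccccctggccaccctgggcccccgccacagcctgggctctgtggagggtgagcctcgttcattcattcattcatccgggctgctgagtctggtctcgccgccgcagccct
The Sox6 promoter held the SOX core at 2 places and the RUNX core at 0. The windows of Nkx3-2 and Pax1 held 0 of either. The Runx2 promoter held the RUNX core at 3 places and the SOX core at 1, and the Runx3 promoter held the RUNX core at 2 places and the SOX core at 0. The downstream promoters of Runx2 (chr9:23742990-23743289) and Runx3 (chr5:152677396-152677695), not printed, held 0 of either core. A match is a description of the letters and not a measured site of binding.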

How the data were processed

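Disc RNA of 6 libraries, 3 Control and 3 labelled AF-PTK@LEV@SPP1, was analysed from the table of counts the authors deposited, whole numbers of reads per Ensembl rat gene without normalization. The submitters' processing notes name FastQC, Trimmomatic, HISAT2, featureCounts, DESeq2 and the build mm10, with no versions. mm10 is a mouse build while the table holds rat genes, so the build of its coordinates is taken as not named. Strand use and the handling of shared reads were not given in the sources used here. The labelled columns were matched by the start of the treatment name. The Control columns carry a disc abbreviation and no treatment, and were assigned to Control because the study names its PBS rats by the disease model, so this mapping rests on the paper's wording.

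Counts of Control replicates 2 and 3 were summed. The resulting 5 samples were analysed in R 4.3.3 with edgeR 4.0.16, using trimmed mean of M-values normalization, filterByExpr at its minimum count of 10, the quasi-likelihood test (two-sided) and BH adjustment over all tested genes. A gene was called at an adjusted p under 0.05. Standard errors were derived from the test statistic and 95% intervals from its degrees of freedom, and the common biological coefficient of variation was 0.302. Single genes were also compared with an exact permutation test over distinct samples. The steps were tested on simulated data. DESeq2 1.42.0 and limma-voom (limma 3.58.1) were alternatives, with other normalizations and filters, a robust fit, a fold threshold, a replicate block, the 6 libraries kept and each library left out.

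The members and the 15 gene lists were chosen with earlier results of these data known, and 7 genes stand on 2 lists. Named genes are the 10 factors, Spp1, up to 3 called genes with the largest change and the most abundant gene of each list, and the 3 nearest profiles to Sox9 and Runx2 among tested genes averaging at least 3 in log2 CPM, over the 6 libraries with a prior count of 2. Ibsp, Sparc, Bglap, Sost, Nkg7, Gzmb, Prf1 and Klrd1, and the markers at 0, Noto and Marco, fall outside this rule and were named after their values were seen, and Supt3h was named for its overlap with Runx2. Krt19, Myh1 and Mylpf were not found in the table by name, and Cd4 was matched by its NCBI gene number. Some genes of the lists are not reported here by name. The replicates are described as separate animals by the study.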

Additional observations from a re-analysis of the deposited data

How the results depend on the processing

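The direction of Sox6, Nkx3-2, Pax1, Sox9, Runx3 and Mef2c was the same under all 17 refits, while their calls depended on the samples and tools. In place of 175 genes higher and 400 lower, edgeR with the 6 libraries kept called 1233 and 1494, and DESeq2 called 1081 and 1422. Without the Control pair edgeR called 0 higher and 3 lower, with 2572 genes at an unadjusted p under 0.05. Leaving out 1 library gave 0 to 170 genes higher and 0 to 396 lower in edgeR. The lowest counts came without AF-PTK@LEV@SPP1 replicates 2 and 3, where 3109 and 2699 genes had an unadjusted p under 0.05. Without AF-PTK@LEV@SPP1 replicate 1 there were 30 higher and 83 lower, and without Control replicate 1 there were 65 and 215. Leaving out Control replicate 1 or the Control pair leaves 1 Control sample, which is assumed to vary like the other group. An absolute log2 fold change above 1 as a further condition left the count of factors called at 1.

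In place of 1 factor called higher there were 2 with the 6 libraries kept, with no filter and with a minimum count of 50, and 3 in DESeq2. There were 0 to 1 in edgeR when a labelled library or 1 of the Control pair was left out. At an unadjusted p under 0.05 these fits gave 2 to 3 factors, counted in either direction. Without the Control pair the log2 fold changes of Sox6, Pax1 and Nkx3-2 were 1.63, 1.67 and 1.67. Those of Runx2, Runx3 and Sp7 were -0.95, -1.25 and -0.73, so the factors went both ways. The cause was not tested.

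Same-numbered libraries did not pair: the correlations of their deviations were -0.326, -0.282 and -0.0756, and AF-PTK@LEV@SPP1 replicate 1 correlated better with Control replicate 2 than with its own number. With the 6 libraries kept and the replicate number as a block, edgeR called 307 genes higher and 434 lower, fewer than the 1233 and 1494 with the 6 libraries and no block. It called 2 factors higher, as many as without the block, and the log2 fold change of Sp7 was 0.080.

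Signs changed for values that were not called. Without the Control pair Dlx5 had -0.023 and Spp1 -0.066. When 1 library was left out, Sox5 ran from -0.43 to 0.10, Runx2 from -0.66 to 0.055, Sp7 from -0.35 to 0.47, Atf4 from -0.031 to 0.22 and Ptch1 from -0.16 to 0.16. Each list gene called lost its call in edgeR without AF-PTK@LEV@SPP1 replicate 2 or 3 and without the Control pair, and each but Cd14 without AF-PTK@LEV@SPP1 replicate 1. Without Control replicate 1 Chad, Cilp, Cd2, Cd8a and Cd68 lost theirs, and Chad also under the block. Depth ranges among the factors down to Nkx3-2, with 47 to 279 counts in a library.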
